A study of Mus musculus with 8 samples.

Results

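The Id proteins (Id1, Id2, Id3 and Id4) and the E proteins (Tcf3, Tcf4 and Tcf12) are the antagonists and the ubiquitous partners of the basic helix-loop-helix transcription factor network. These 7 genes were chosen by name as the complete mouse Id and E protein families, by a rule that uses no measured value but with earlier results of these data known, and all 7 were found among the 37980 gene rows of the table. Their RNA was measured by polyA RNA sequencing in bone marrow multipotent progenitors (MPPs) of C57BL/6 mice, sorted as Lin-CD48-ckit+Sca1+CD135+CD150- cells. The NA MPP group came from mice that carry the NUP98-HOXA10hd fusion gene, a fusion of nucleoporin NUP98 sequence with the DNA-binding homeodomain of HOXA10. Per the methods of the study, NA animals are NA LSL/+ mice crossed with Vav-Cre, a Cre strain active across blood cells, so that all blood cells, and not MPPs alone, can carry the active allele. The WT MPP group carried no fusion. Sex and age are not in the labels.

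E proteins bind DNA at E-box motifs as homodimers or as heterodimers with tissue-restricted class II factors such as Tal1. Id proteins keep the helix-loop-helix dimerisation surface but lack the basic DNA-binding region, so an Id and E protein dimer does not bind the E-box. In early blood progenitors E proteins are known for driving lymphoid genes and restraining proliferation, and Id genes are known as targets of BMP and SMAD signalling and as genes that respond quickly to serum and growth factors.

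There were 4 libraries in each group, each made from 1000 sorted cells, and they are named here by group and number (NA1 to NA4 and WT1 to WT4). The table was read as normalised counts, that is estimated reads already divided by 1 size factor per library, as inferred from its low values. The recovered depth was 3877029 to 4916903 estimated reads. The fourth library of each group lay closer to the mean of the other 3 than any of those did, with a root mean square log2 distance of 0.228 for NA4 and 0.165 for WT4 against 0.331 to 0.388 for the other 6 libraries. Whether NA4 and WT4 are samples independent of the other 3 cannot be read from the labels, and an n of 4, an SD or a p printed here holds only if they are. The tests are therefore given with and without these libraries. Of the genes of the gate, Kit, Flt3 (CD135) and Ly6a (Sca1) were at 1103 normalised counts or more in every library, and Slamf1 (CD150), of the negative gate, was 3.69 to 47.9 in NA and 16.9 to 30.6 in WT. Gate genes also differed between the groups: Ly6a was lower in NA (1277 ± 88.5 against 1548 ± 63.3, limma adjusted p = 0.0257), as was Cd48, of the negative gate (17.7 ± 5.36 against 56.1 ± 21.3, SD, n = 4 each; limma adjusted p = 0.00711). Xist was 0.940 to 2.80 in NA and 869 to 1285 in WT while the Y-linked genes were present in the NA libraries and at or near 0 in WT, so genotype and sex cannot be told apart in any comparison here. In bulk samples of this kind, fewer cells of a type and less RNA per cell cannot be told apart either.

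Of the 7 genes, Id2, Id3, Tcf3 and Tcf4 rose in NA MPPs, none fell, Id1 and Tcf12 did not pass the test, and Id4 was too low to enter it. By the ratio of group means, Id3 was 4.81-fold higher, Id2 was 2.15-fold higher, Tcf3 was 1.98-fold higher and Tcf4 was 1.60-fold higher. The test was limma on log2(normalised count + 1) with Benjamini-Hochberg adjustment over the 11451 genes that reached 10 normalised counts in 4 or more libraries, with a threshold of 0.05. It called 17.9% of all tested genes in either direction, 10.1% as higher and 7.87% as lower in NA, against 4 of the 6 members tested as higher. At an unadjusted p under 0.05, 5 members were higher and 0 lower. Under total-count scaling 925 of 2239 called genes were higher, and under upper-quartile scaling 958 of 2050, against 1152 of 2053 as deposited. All NA libraries lay above all WT libraries for 4 of the 7 members, and for 11.5% of all tested genes. The median log2 fold change was 1.06 over the 6 members tested and -0.01 over all tested genes. Without NA4 and WT4 together only Tcf3 and Tcf4 of the members passed, and the count over all genes fell from 2053 to 515. Without NA4 the members called were the same in number, 2, with 1106 genes called in all, and without WT4 1294 genes were called in all.

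**Figure D1:**
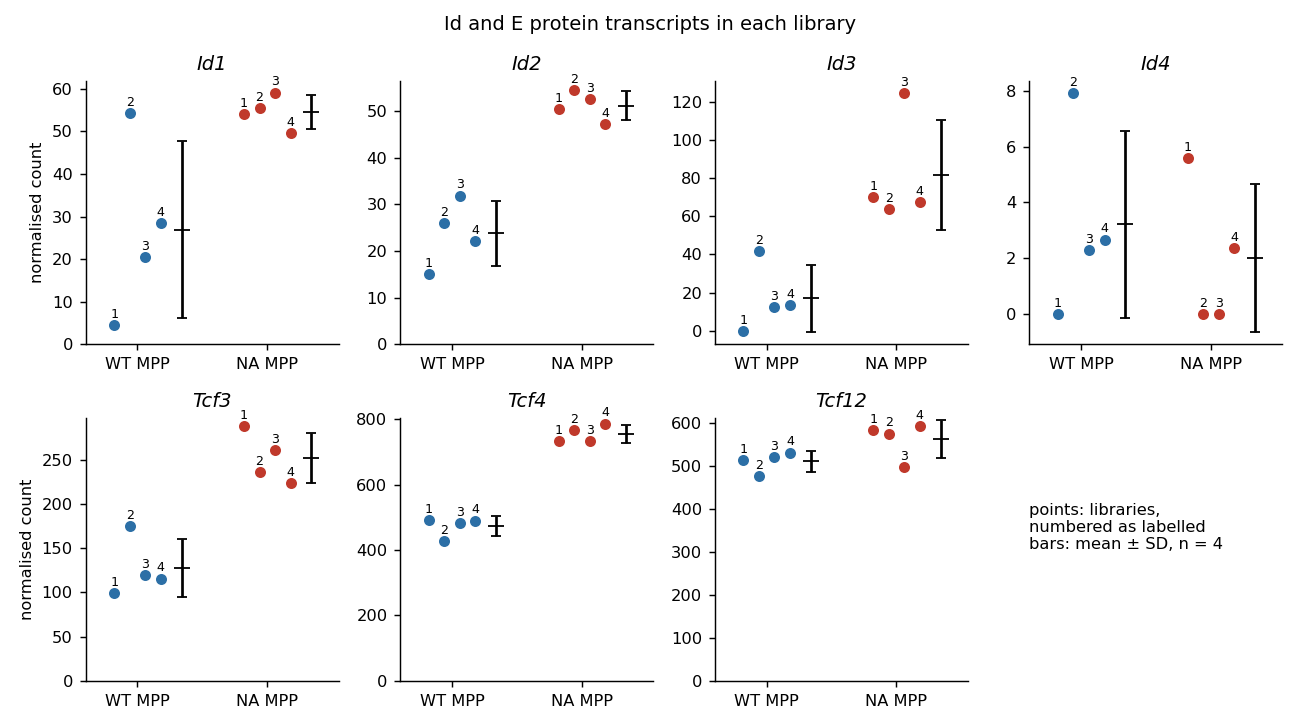
Normalised count (vertical axis, linear) of each Id and E protein gene in the 4 WT MPP and 4 NA MPP libraries, as points numbered by library, with the mean and SD of each group beside them. For Id2, Id3, Tcf3 and Tcf4 every NA point lies above every WT point, while for Id1 the WT2 point lies among the NA points.

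Promoter sequence of 5 of the 7 genes, all but Id1 and Tcf4, was searched (RefSeq GRCm38.p6; the labels name mm10). The stretches below, each of 30 bases, are shown because they hold the E-box or signal-response letters found within 250 bases before the start of 3 of the 4 genes that rose. Each start is the transcript start that the promoter table uses, which for Tcf3 lies inside the outermost bounds of the gene given further on. Capitals mark the motif letters.
Id2 promoter, chr12:25096271-25096300, minus strand: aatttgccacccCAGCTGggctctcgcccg
Id3 promoter, chr4:136143640-136143669, plus strand: cgctgtcctcggCGTCAgaccagcctaagg
Tcf3 promoter, chr10:80433677-80433706, minus strand: gcgacaGTGGGCGtggtCACTTGggggcgt
The Id2 stretch holds the E-box form CAGCTG, which begins 196 bases before the start. Searched on both strands, CAGCTG occurs in 13.0% of 32851 promoter windows of this length, and any E-box (CANNTG, of which CAGCTG is 1 form) in 66.2%. The Id3 stretch holds CGTCA, the reverse complement of the cAMP response element half-site TGACG, 170 bases before the start, a motif held by 17.8% of windows. GENCODE M21 places this Id3 stretch inside an exon of the gene, and the other 2 stretches outside any exon of their genes. The Tcf3 stretch holds the E-box CACTTG 54 bases and the EGR core GTGGGCG 65 bases before the start, and 7.02% of windows hold the EGR core. Tcf12 also held CAGCTG, Id4 held TGACG and GGCGCC, and Id2 held GGCGCC, a SMAD-type motif found in 9.59% of windows. CAGGTG, found in 17.2% of windows, was in none of the 5. These are letter matches only, and no binding was measured.

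Id1 (ENSMUSG00000042745, chr2:152736251-152737410), a BMP-responsive Id gene, was 54.1, 55.5, 59.1 and 49.6 normalised counts in NA1 to NA4 and 4.44, 54.4, 20.49 and 28.4 in WT1 to WT4. The NA libraries were tight and the WT libraries were spread over the whole range from near 0 to the NA level, with WT2 inside the NA range and WT1 resting on 5 estimated reads. The means were 54.6 ± 3.92 and 26.9 ± 20.8 (SD, n = 4 each), and the log2 difference of 1.41 (SE 0.53, 95% interval 0.28 to 2.54) did not pass (limma adjusted p = 0.0786). Single WT libraries moved the result both ways: without WT2 the log2 difference was 1.88 and passed, with a limma adjusted p of 0.0198, and without WT1 it was 0.76, with a limma adjusted p of 0.149. Without NA4 and WT4 together the limma adjusted p was 0.180.

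Id2 (ENSMUSG00000020644, chr12:25093799-25096092), the Id gene best known for its need in innate lymphoid and NK cells, was 50.4, 54.5, 52.6 and 47.2 normalised counts in NA1 to NA4 and 15.1, 26.05, 31.9 and 22.2 in WT1 to WT4. The groups did not overlap: the lowest NA library, NA4, was above the highest WT library, WT3. Id2 rose from 23.8 ± 7.04 to 51.2 ± 3.13 (SD, n = 4 each). The fitted log2 fold change was 1.12 with an SE of 0.29 and a limma adjusted p of 0.0174. The call was near its threshold, since the limma adjusted p was 0.0504 without NA4, 0.0506 without WT1, 0.0520 without WT4 and 0.130 without NA4 and WT4 together, while the log2 fold change stayed between 0.93 and 1.27 when any 1 library was left out. The 17 to 28 estimated reads behind the WT values limit their precision.

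Id3 (ENSMUSG00000007872, chr4:136143822-136145392), which is an early-response gene and a known restraint on lymphoid E protein activity, showed the widest spread. It was 70.01, 63.9, 125 and 67.3 normalised counts in NA1 to NA4 and 0, 41.9, 12.5 and 13.3 in WT1 to WT4. All NA libraries lay above all WT libraries, NA3 stood above the other NA libraries, and WT2 was again the highest of WT. No read was estimated in WT1, which allows up to 2.66 normalised counts there (3 estimated reads, counting error only). Id3 rose from 16.9 ± 17.7 to 81.5 ± 28.9 (SD, n = 4 each). The fitted log2 fold change was 3.05 with an SE of 0.81 and a limma adjusted p of 0.0187. Much of the size rested on WT1, without which the log2 fold change was 1.97, while without WT2 it was 3.78. The call was lost without NA4 (limma adjusted p = 0.0511), without NA4 and WT4 together (0.0727, log2 fold change 3.32), without the low-count filter (0.0898) and without the variance trend (0.0799).

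Id4 (ENSMUSG00000021379, chr13:48261116-48266028), the Id gene known mainly from the nervous system, was near the limit of detection. It was 5.601, 0, 0 and 2.36 normalised counts in NA1 to NA4 and 0, 7.93, 2.28 and 2.66 in WT1 to WT4, from 0 to 7 estimated reads. The means were 1.99 ± 2.65 and 3.22 ± 3.35 (SD, n = 4 each), and a difference was not detectable at this depth (exact two-sided permutation test over 70 assignments, p = 0.657, smallest possible 0.0286). Without WT2 the difference of means, -1.23, changed sign to 0.344.

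Id1 and Id3 were lowest in WT1 and highest within WT in WT2, as was the summed level of the immediate early and dissociation genes, a list of 17 genes such as Fos, Egr1 and Nr4a1 that respond within minutes to stimulation or handling. Of the 15 of these that were tested, 14 were lowest within WT in WT1, while 10 were highest in WT2 and 5, Fos among them, in WT3. Id2 was also lowest in WT1 (15.1 normalised counts) and, like those 5, was highest within WT in WT3 (31.9). Of the same 15 genes, 11 rose, 0 fell and the median log2 fold change was 1.51. Their summed level was 44138 to 52672 normalised counts in NA, 6110 in WT1, 19525 in WT2, 16924 in WT3 and 11855 in WT4. Fos, the most abundant of them, was 19676 to 21297 in NA and 804 to 3154 in WT. Nr4a1 was 42.6, 2411, 1226 and 898 in WT1 to WT4, and Atf3 was 0, 165, 207 and 94.996. The part of these genes in the Id result was not tested.

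The genes with the most similar profiles were sought among 8870 tested genes whose mean was 50 normalised counts or more, by the root mean square difference of centred log2 values over the 8 libraries, where 0 is an identical shape. For Id1 these were the clock repressor Per1 (0.308), Cebpb (0.375) and the antiproliferative gene Btg2 (0.376). Per1 shared the high WT2 value, with 118, 1215, 274 and 384 normalised counts in WT1 to WT4 and 774 to 1261 in NA. For Id3 they were the kinase gene Plk2 (0.413), Ptprj (0.608) and the AP-1 gene Fosb (0.655), and Plk2 was 1.78 in WT1, 95.1 in WT2 and 139 to 289 in NA. For Id2 they were Pigl (0.099), the AP-1 gene Jun (0.127) and Tgoln1 (0.136). Btg2, Fosb and Jun are also members of the immediate early list. The 8 points of each profile fall into 2 genotype groups, so each likeness holds the difference between the groups. Without NA4 and WT4 together, an alternative chosen after seeing the data, 2 or 3 of the 3 genes of each of the 6 members stayed the same.

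**Figure D2:**
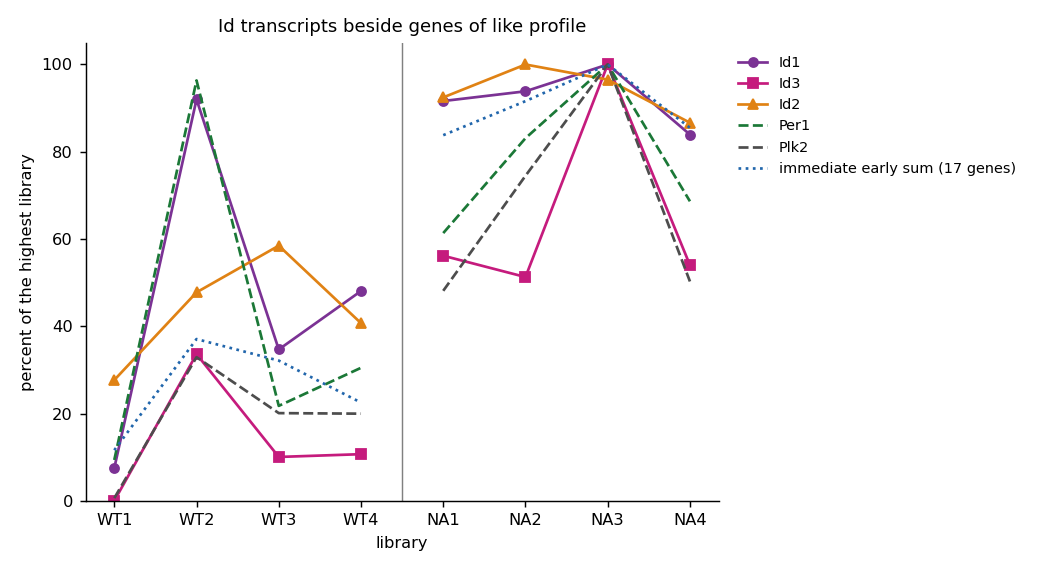
Level of Id1, Id2 and Id3, of Per1 and Plk2 and of the summed 17 immediate early genes in each library, as a percent of the highest library of the same series (vertical axis), with WT libraries left and NA libraries right of the grey line. The lines only join points of 1 series: Id1, Id2, Id3, Per1 and Plk2 are all lowest in WT1. Within WT, Id1, Id3, Per1 and Plk2 are highest in WT2 and Id2 is highest in WT3.

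Tcf3 (ENSMUSG00000020167, chr10:80409541-80433976) encodes E12 and E47, the E proteins best known for B cell commitment and for restraint of progenitor proliferation. It was 288, 236, 260 and 223 normalised counts in NA1 to NA4 and 99.4, 174, 120 and 115 in WT1 to WT4. The groups did not overlap, with WT1 the lowest and WT2 the highest of WT, as for Id1 and Id3. Tcf3 rose from 127 ± 32.6 to 252 ± 28.4 (SD, n = 4 each). The fitted log2 fold change was 1.005 with an SE of 0.17 and a limma adjusted p of 0.00156. The call held in all 20 alternatives, with limma adjusted p-values up to 0.0213, the value without NA4 and WT4 together.

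Tcf4 (ENSMUSG00000053477, chromosome 18) encodes E2-2, the E protein known for plasmacytoid dendritic cell identity. It was 734, 766, 733 and 787 normalised counts in NA1 to NA4 and 493, 427, 483 and 490 in WT1 to WT4. The libraries within each group lay close together and the groups were far apart. Tcf4 rose from 473 ± 31.1 to 755 ± 26.2 (SD, n = 4 each). The fitted log2 fold change was 0.67 with an SE of 0.09 and a limma adjusted p of 0.000226. The call held in all 20 alternatives, with a limma adjusted p of 0.00825 without NA4 and WT4 together. The 8 plasmacytoid dendritic markers summed to 1120 to 1363 normalised counts in NA and 921 to 1249 in WT. Most of that was Runx2, which rose (1202 against 939, log2 fold change 0.36), whereas Irf8, a dendritic lineage regulator, fell (23.7 against 48.9, log2 fold change -1.06). Bst2 did not pass (46.6 against 51.9). Cox6a2 was at 0 in every library, and Ccr9 was 0 in every NA library against 1.13 to 13.3 in WT. Siglech, Ly6d and Spib, like Ccr9, were too low to be tested, with means in NA of 0.47, 0 and 0 against 3.45, 1.71 and 0.949 in WT.

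Tcf12 (ENSMUSG00000032228, chr9:71844252-72111893) encodes HEB, the E protein best known from thymocyte development. It was 584, 576, 498 and 593 normalised counts in NA1 to NA4 and 514, 478, 521 and 532 in WT1 to WT4. NA3 lay inside the WT range, and the other NA libraries were above it. The means of 563 ± 44.0 and 511 ± 23.4 (SD, n = 4 each) gave a log2 difference of 0.14 (SE 0.10, 95% interval -0.07 to 0.34, limma adjusted p = 0.350). The fit did not call Tcf12 under any of the 20 alternatives.

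Among tested genes with a mean of at least 50, the profiles most like Tcf3 were those of Gm12992 (0.132), the transcription factor gene Nfix (0.133) and Tsfm (0.140). For Tcf4 they were Mtdh (0.050), the transcription factor gene Foxp1 (0.053) and Miga1 (0.056), and for Tcf12 Tmco1 (0.038), Zfp706 (0.044) and Sacm1l (0.044). None of these 9 genes is on the immediate early list, while Btg2, Fosb and Jun are among those of Id1, Id2 and Id3. Gm12992 and Nfix, like Tcf3, were nonetheless lowest in WT1 and highest within WT in WT2. Tsfm was also highest in WT2 but lowest in WT4. Foxp1 was 1112 ± 30.3 normalised counts in NA and 725 ± 53.8 in WT (SD, n = 4 each).

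**Figure D3:**
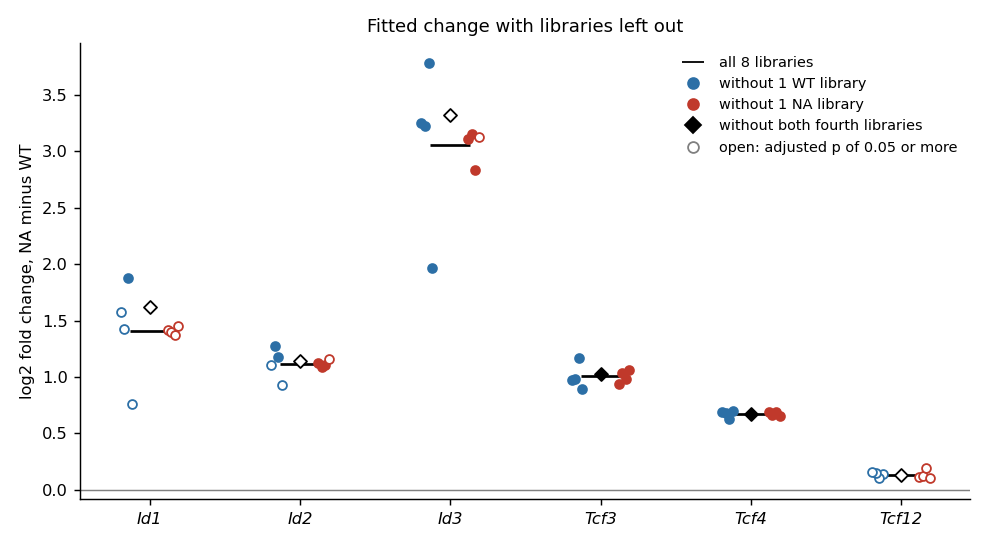
Fitted log2 fold change (NA minus WT, vertical axis) of the 6 tested members with all 8 libraries (line), without 1 library (circles, blue for a WT and red for an NA library) and without NA4 and WT4 together (diamond), with open symbols for an adjusted p of 0.05 or more. Tcf3 and Tcf4 keep filled symbols throughout, while Id2 and Id3 have both kinds and Id3 ranges from 1.97 to 3.78.

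Levels of different genes were compared per kb of the median coding transcript, as normalised counts per kb. In NA the order was Tcf4 (410 ± 14.2), Tcf12 (249 ± 19.5), Tcf3 (88.8 ± 10.02), Id3 (63.8 ± 22.6), Id1 (52.1 ± 3.74), Id2 (40.3 ± 2.46) and Id4 (0.517 ± 0.689; SD, n = 4). In WT it was Tcf4 (257 ± 16.9), Tcf12 (227 ± 10.4), Tcf3 (44.9 ± 11.5), Id1 (25.7 ± 19.9), Id2 (18.7 ± 5.54), Id3 (13.3 ± 13.9) and Id4 (0.836 ± 0.871; SD, n = 4). Among Id1, Id2 and Id3 neighbours lay within their spread in WT, as did Id3 and Id1 in NA. The order of the E proteins depended on the transcript length used, because Tcf4 has 46 annotated coding transcripts of 1841.5 bases in the median and 8577 at the longest. Per kb of the longest transcript Tcf4 and Tcf12 were alike in NA, at 88.0 ± 3.05 and 89.3 ± 6.98 (SD, n = 4), and Tcf12 was above Tcf4 in WT, at 81.2 ± 3.72 and 55.2 ± 3.62.

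The summed Id level per kb was 148, 146, 195 and 138 in NA1 to NA4 and 16.1, 107, 55.1 and 55.7 in WT1 to WT4. The summed E protein level per kb was 759, 755, 710 and 769 in NA1 to NA4 and 530, 505, 535 and 542 in WT1 to WT4. Neither sum overlapped between the groups. As a percent of the E protein sum the Id sum was 19.5, 19.3, 27.5 and 17.9 in NA1 to NA4 and 3.04, 21.2, 10.3 and 10.3 in WT1 to WT4, and here WT2 lay inside the NA range. The group values were 21.1% ± 4.35 and 11.2% ± 7.51 (SD, n = 4 each), or 52.5% and 27.2% per kb of the longest transcript. Without NA4 and WT4 together they were 22.1% ± 4.68 and 11.5% ± 9.16 (SD, n = 3 each). Within the E protein sum, Tcf12 made up 31.0% to 34.2% in NA and 41.9% to 43.4% in WT, Tcf4 52.5% to 56.0% and 45.9% to 50.4%, and Tcf3 10.2% to 13.4% and 6.61% to 12.2%. The lower Tcf12 share in NA, with no overlap between groups, was also seen with the longest transcript (31.3% to 36.0% and 41.1% to 47.2%). The Tcf4 shares, apart with the median transcript, overlapped with the longest (31.0% to 35.1% in NA and 26.9% to 33.3% in WT). These shares are descriptions of RNA and say nothing of protein.

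**Figure D4:**
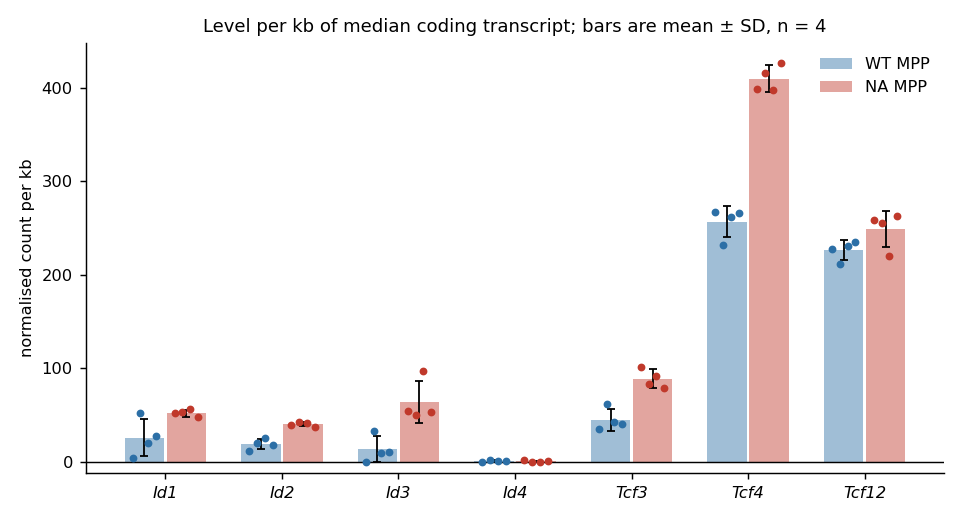
Normalised count per kb of the median coding transcript (vertical axis, linear, bars from 0) of the 7 genes, with group means as bars, SD as error bars (n = 4) and libraries as points, WT MPP in blue and NA MPP in red. Tcf4 and Tcf12 are the highest in both groups, and Id4 is close to 0.

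The other genes of the pathway came from 7 lists of partners, inputs and targets. Of the 102 distinct genes listed, 52 were tested, 12 rose and 3 fell, to be read against the 10.1% higher and 7.87% lower of all tested genes. None of the 19 class II partners rose or fell: Tal1, the class II factor of stem and progenitor cells, was 1319 ± 96.9 against 1120 ± 116 (± SD, n = 4 each; fitted difference 0.24, limma adjusted p = 0.0920), Lyl1 was 415 ± 56.2 against 422 ± 19.6, and 12 of the others were at 0 in every library. Tal1 and Lyl1 were thus the only class II partners with enough RNA to be tested, and at an unadjusted p under 0.05 only Tal1 was past the threshold.

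Of the E protein complex and cofactor genes 13 of 15 were tested, 5 rose, 0 fell and the median log2 fold change was 0.26. Lmo2, the bridge between Tal1 and E proteins on one side and GATA factors on the other, rose from 8230 ± 234 to 12342 ± 529 normalised counts (± SD, n = 4 each), with a fitted log2 change of 0.58 and a limma adjusted p of 4.52e-05. Crebbp, a histone acetyltransferase that E proteins recruit, was 93.3, 135, 102 and 148 in NA1 to NA4 and 45.3, 50.96, 25.0 and 41.7 in WT1 to WT4, with no overlap (fitted log2 change 1.552, limma adjusted p = 0.00110). At an unadjusted p under 0.05 only Ldb1, the scaffold of the complex, was lower (222 ± 53.8 against 295 ± 26.2, SD, n = 4 each; limma adjusted p = 0.0717). Runx1t1 was higher at that threshold but did not pass (30.2 ± 5.55 against 16.9 ± 4.09, SD, n = 4 each; limma adjusted p = 0.112). The related acetyltransferase Ep300 was 94.1 ± 14.0 against 97.8 ± 14.8. Gata2, a stem cell GATA factor (log2 fold change 0.33), Cbfa2t3, a corepressor of the Tal1 complex (0.39), and Kat2b, another acetyltransferase (0.34), also rose, at limma adjusted p-values of 0.0275, 0.0330 and 0.0480. These 3 calls were lost without NA4 and WT4 together. Gata2 was also lost without NA2, NA4, WT1 or WT4, Cbfa2t3 without NA2, NA4, WT1, WT2 or WT4, and Kat2b without NA1, NA3, NA4, WT1, WT3 or WT4, so that 2 to 4 genes of this list rose when any 1 library was left out, and without NA3 Ldb1 was called lower. Scaling moved these counts too, to 2 higher and 1 lower (Ldb1) under total-count scaling and to 3 higher under upper-quartile scaling. Over all 20 alternatives Gata2 lost its call in 8, Cbfa2t3 in 12 and Kat2b in 13.

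Of the BMP and SMAD genes that act on Id genes 13 of 20 were tested, 2 rose, 1 fell and the median log2 fold change was -0.07. Smad4, the SMAD shared by all receptor-activated SMADs, was 341, 611, 602 and 607 in NA1 to NA4 and 160, 249, 116 and 174 in WT1 to WT4, with no overlap (log2 fold change 1.63, SE 0.22, limma adjusted p = 0.000253). Smad1, a BMP-activated SMAD, rose from 156 ± 25.6 to 326 ± 77.3 (± SD, n = 4 each), with a fitted log2 change of 1.04 and a limma adjusted p of 0.00170, while Smad5, of the same class, was 998 ± 40.6 against 933 ± 128 and Smad9 was at 0. Eng, a BMP co-receptor, fell from 501 ± 52.4 to 375 ± 29.5 (± SD, n = 4 each), with a fitted log2 change of -0.42 and a limma adjusted p of 0.0185. This call was lost without NA4, without WT2, without NA4 and WT4 together and without the variance trend. The ligand genes Bmp2, Bmp4 and Bmp7 were at 3.55 normalised counts or less in every library, and Bmp6 was 9.23 in NA3 and 0 in the others. The receptor gene Bmpr1a was lower in every NA library (12.7 ± 7.45 against 25.8 ± 6.89, SD, n = 4 each) but did not pass (limma adjusted p = 0.141). The inhibitory SMAD genes Smad6 (17.1 ± 4.90 against 27.0 ± 5.80) and Smad7 (136 ± 45.7 against 131 ± 59.4), which BMP signalling is known to induce along with Id genes, did not pass (SD, n = 4).

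Among lymphoid targets of E proteins 6 of 20 were tested, 1 rose and 1 fell. Dntt, which encodes the terminal transferase of lymphoid progenitors, was 27.1, 54.5, 30.5 and 40.2 in NA1 to NA4 and 242, 194, 223 and 210 in WT1 to WT4. Dntt fell by 2.53 on the log2 scale (SE 0.22, limma adjusted p = 5.47e-06), the groups were far apart, and the call held in every alternative. Cxcr4, a chemokine receptor gene, rose from 73.8 ± 22.4 to 206 ± 35.2 (± SD, n = 4 each), with a fitted log2 change of 1.501 and a limma adjusted p of 0.000298. Rag1, Rag2, Il7r, Ebf1, Pax5 and Ptcra were at 3.76 normalised counts or less in every library, so these genes could not be compared. Notch1 (163 ± 31.9 against 218 ± 51.7), Foxo1 (263 ± 52.7 against 247 ± 38.4), Cd79b and Blnk did not pass (SD, n = 4).

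Among cell cycle targets 8 were tested, 3 rose and 1 fell. Cdkn1b, which encodes the inhibitor p27, was 410, 242, 253 and 261 in NA1 to NA4 and 137, 129, 199 and 164 in WT1 to WT4, a fitted log2 change of 0.87 (limma adjusted p = 0.00597). Cdk6, which encodes a cyclin-dependent kinase that drives entry into the cycle, rose from 307 ± 83.7 to 545 ± 57.0 (± SD, n = 4 each), with a fitted log2 change of 0.86 and a limma adjusted p of 0.00225. Gfi1, a repressor gene induced by E proteins in lymphoid cells, rose from 331 ± 23.8 to 505 ± 18.4 (± SD, n = 4 each). Its fitted log2 change was 0.61, with a limma adjusted p of 0.00102. Gfi1b, of the same list, was lower at an unadjusted p under 0.05 but did not pass. It was 148 ± 34.1 against 208 ± 48.5 (± SD, n = 4 each; log2 difference -0.48, limma adjusted p = 0.0979). Ccnd3, which encodes cyclin D3, was lower (378 ± 78.3 against 500 ± 34.4; log2 fold change -0.42, limma adjusted p = 0.0465), with an overlap in NA1 and a call lost without NA2, NA3, NA4, WT1, WT2, WT3 or WT4 and without NA4 and WT4 together. The Ccnd3 call was lost in 13 of all 20 alternatives. Cdkn1a, which encodes the inhibitor p21 and is a classical target of the E proteins, was 65.3, 208, 348 and 151 in NA1 to NA4 and 14.2, 233, 70.6 and 85.2 in WT1 to WT4, with WT1 again lowest and WT2 highest in WT (log2 difference 1.27, limma adjusted p = 0.186).

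The other helix-loop-helix repressors gave 4 tested genes and no call, with a median log2 fold change of 1.547. Hes1, a Notch-responsive repressor, was 59.7, 196, 315 and 171 in NA1 to NA4 and 4.44, 135, 82.0 and 51.5 in WT1 to WT4 (limma adjusted p = 0.0955). Hey1 (122 ± 66.2 against 44.0 ± 49.9, limma adjusted p = 0.0841) and Bhlhe40 (129 ± 56.6 against 57.4 ± 32.5, limma adjusted p = 0.0516) had the same WT1 low and WT2 high (SD, n = 4), and Hes6 was 161 ± 35.6 against 177 ± 22.3. At an unadjusted p under 0.05, Hes1, Hey1 and Bhlhe40 were past the threshold. Without NA1 or without WT2 the number of repressor genes called rose to 2 and 3. Of the turnover genes, only Usp1 rose, which encodes a deubiquitinase known to stabilise Id proteins. Usp1 went from 337 ± 31.7 to 555 ± 53.4 (± SD, n = 4 each), with a fitted log2 change of 0.72 and a limma adjusted p of 0.000586. The Usp1 cofactor gene Wdr48 was 91.7 ± 33.8 against 98.9 ± 28.2. Stub1 was lower at an unadjusted p under 0.05 but did not pass (250 ± 35.2 against 318 ± 47.1, SD, n = 4 each; limma adjusted p = 0.106).

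**Figure D5:**
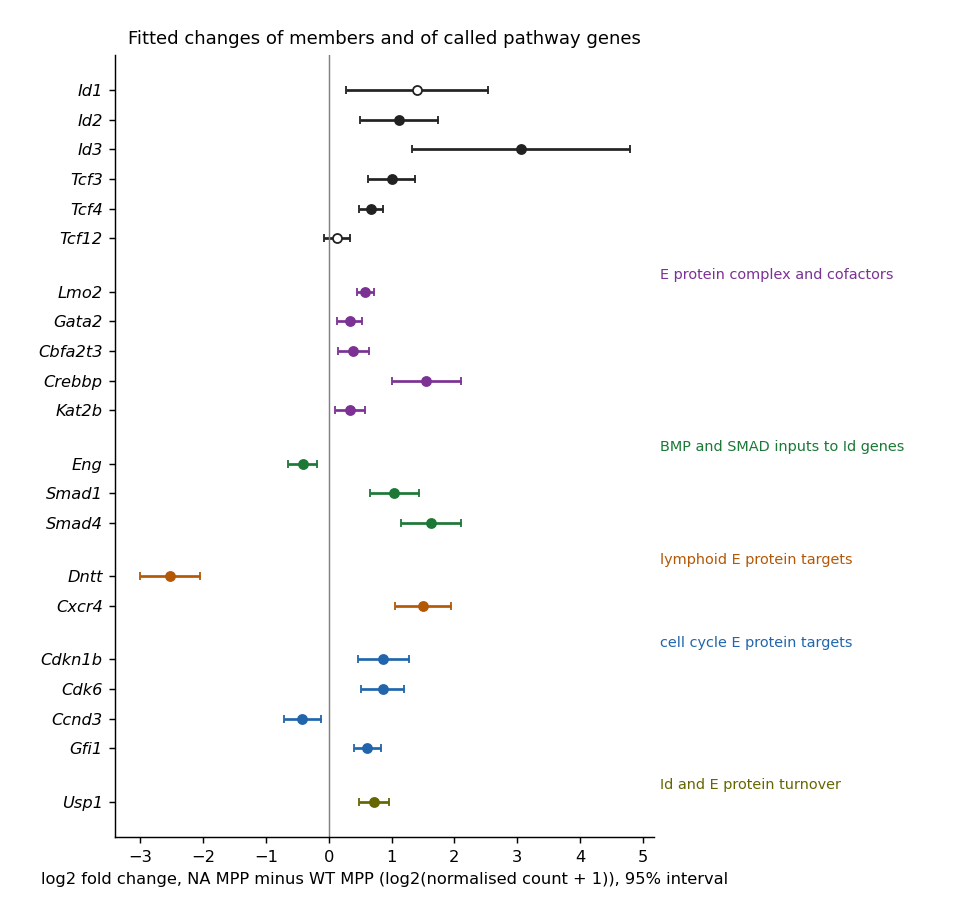
Fitted log2 fold change (horizontal axis, NA minus WT) with 95% intervals of the 6 tested members, in black, with open symbols for those that did not pass, and of the 15 pathway genes that passed the test, coloured by list. Id3 has the widest interval of the members, Tcf4 and Tcf12 the narrowest, and Dntt lies furthest below 0.

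Markers of other cell types were read beside these results. NK and innate lymphoid markers, where Id2 is known to be high, summed to 644 to 789 normalised counts in NA and 478 to 649 in WT, with Il2rb, Ncr1 and Gzma at 0 in every library. Most of that sum was Rora (311 in NA against 250 in WT), Tox (266 against 175) and Gata3 (123 against 113). Only Tox of this list was called, as higher in NA (limma adjusted p = 0.0130). T cell markers summed to 115 to 199 and 170 to 296, with Cd3e, Cd3g, Cd3d and Trac at 0. Lck, the only T cell marker tested, made up most of that sum. It was called lower in NA (145 ± 32.0 against 227 ± 54.4, SD, n = 4 each; limma adjusted p = 0.0370). B cell markers summed to 101 to 239 and 182 to 269, with Ms4a1, Pax5 and Igll1 at 0. Erythroid markers were lower in NA (43.7 to 72.4 against 165 to 306 normalised counts, mostly Hbb-bt). The neutrophil sum was also lower (1390 to 1709 against 1750 to 2629, with Elane at 0). Most of that sum was Prtn3 (1371 to 1677 against 1711 to 2291), with 158 of S100a9 in WT3. Besides Prtn3, Mpo was called lower (13.2 ± 7.83 against 37.0 ± 14.6, SD, n = 4 each; limma adjusted p = 0.0422). Megakaryocyte markers summed to 2779 to 3064 and 2602 to 2756, and mast cell and basophil markers to 17.9 to 26.1 and 1.14 to 19.5. The part of these cell types in the Id and E protein values was not tested.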

How the data were processed

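The deposited table, named as raw counts, was read as a normalised signal, that is RSEM expected counts scaled by 1 size factor per library. This was inferred from the values and is not stated in the labels, which name RSEM, DESeq2 and mm10 with no versions. In each library 98.5% to 99.1% of low values were whole multiples, within 0.1 of a step, of a step between 0.888 and 1.18, which gave the estimated reads. Strand use in counting was not given in the sources used here. Symbols came from GENCODE M21 (32916 of 37980 rows; unnamed rows held 0.779% of summed values). Positions came from RefSeq GRCm38.p6.

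Values were tested with limma 3.58.1 (R 4.3.3) on log2(normalised count + 1), with a mean-variance trend and no covariate, on genes that reached 10 normalised counts in 4 or more libraries. The added 1 shrinks changes of low genes, and a log2 fold change is a difference of mean logs. Id4 was tested by exact permutation (scipy 1.17.1). No source says that libraries came from separate animals, so p-values measure the spread between these libraries, which may be technical. The scripts were tested on simulated data. The 95% intervals come from the limma fit. Floors cover counting error only, since cDNA was amplified without molecular identifiers.

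The members and lists were chosen with earlier results of these data known. Named genes were the 7 members, list genes that passed the test (at most 3 per direction where over 6 passed), the 3 most similar profiles per member and the gate genes. Other genes, such as Tal1, Lyl1, Ldb1, Ep300, Smad5, Hes1 and Cdkn1a, were named with their values seen, and marker genes only beside a result. Cdkn2d matched no row. Groups came from sample titles. Alternatives covered pseudocount, filter, scaling, trend, replicate block, depth class, GC trend and left-out libraries.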

Additional observations from a re-analysis of the deposited data

Results flagged for a closer look

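In 50 groups of 4 libraries, 7 had 1 library that stood apart from the other 3 by more than Dixon's 95% critical value for the gap over the range, where chance gives 2.5 (about 1 in 20). Id3 was 125 normalised counts in NA3 against 63.9 to 70.01 in the other NA libraries. The summed Id level as a percent of the E protein level was 27.5 in NA3 against 17.9 to 19.5, a value that contains Id3. Tcf4 was 427 in WT2 against 483 to 493 in the other WT libraries. Smad4 was 341 in NA1 against 602 to 611, still above every WT library. Cdkn1b was 410 in NA1 against 242 to 261, and Gfi1 was 533 in NA4 against 494 to 497. The depth of NA4 was 3887781 estimated reads, below the 4909327 to 4916903 of NA1 to NA3.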

How the results depend on the processing

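The number of members called higher was 4 and fell to 2 when the mean had to reach 50 normalised counts (a filter that removes Id1, Id2 and Id3) and to 2 without NA4 and WT4 together, and ranged from 2 to 5 when 1 library was left out. It was 4 under each other alternative that kept all 8 libraries, apart from 3 without the low-count filter and 3 without the variance trend, and no member was called lower under any. The total of 2053 genes called fell to 515 without NA4 and WT4 together, and ranged from 1106 to 2141 when 1 library was left out and from 1420 to 2239 under the other alternatives. Pathway genes called lower fell from 3 to 1 without the variance trend and to 1 without NA4 and WT4 together (1 to 4 when 1 library was left out), and those called higher were 9 to 15 under all alternatives against 12. Of the 15 pathway genes called, 10 kept their call under every alternative, 5 lost it in at least 1, and 0 changed sign. The Id4 difference of means, -1.23, changed sign without WT2, to 0.344 (exact permutation p = 0.914), and ranged from -2.43 to 0.344 when 1 library was left out. Id as a percent of E protein level moved to 52.5 in NA and 27.2 in WT with the longest transcript, and to 22.1 and 11.5 without NA4 and WT4 together, a step chosen after seeing the data. Where these values changed, the cause was not tested.

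With the replicate number as a block 2004 genes were called, and limma adjusted p-values were 0.0607 for Id1, 0.0264 for Id2, 0.0129 for Id3, 0.00445 for Tcf3, 0.00116 for Tcf4 and 0.372 for Tcf12, so no member call changed. Among pathway genes Cbfa2t3, Ccnd3 and Kat2b lost their calls, and 3 HLH repressors gained one. Deviations of libraries with the same number correlated at 0.15, 0.0005, 0.0034 and 0.24, which is over 0.1 for numbers 1 and 4 only. NA1 and NA4 were most like WT1 and WT4, but NA2 and NA3 were most like WT4 and WT2, so the libraries were taken to share only a number. The planned edgeR and DESeq2 fits were not run, because the values were taken as already scaled. RSEM also assigns some reads in fractions, so whole reads are not known for every gene. Depth limits single values: the WT libraries held 5 to 48 estimated reads of Id1 and 0 to 37 of Id3.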
